A study of Mus musculus with 14 samples.

Results

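Forkhead transcription factors were followed in mouse embryoid bodies, with the targeted gene Foxk1 and its relative Foxk2 left aside. The group holds the 41 forkhead genes of a fixed list of gene names, from Foxa1 to Foxs1, among 36047 genes in the deposited count tables, and all 41 were present. The rule that picks them is by name and uses no measured value, though the group was chosen with earlier results of these data known. Embryoid bodies are aggregates of embryonic stem cells (ESCs) that differentiate in suspension. The labels' protocols name 2 ESC lines, iHA-Foxk1 as control and Foxk1 KO. The day 3 and day 5 control titles add the letters ND, which the labels do not spell out, and the day 10 titles say only that those libraries are control. Bulk RNA was sequenced at days 3, 5 and 10 from control and KO, and at day 10 also from KO with IWR1, a compound that blocks canonical Wnt signalling by stabilising Axin. The labels used here give neither its dose nor its timing. Each of the 7 groups has 2 libraries, 14 in all. Both lines had been kept in serum with LIF on irradiated mouse fibroblasts, were separated from that feeder layer by plating, and were then shaken in a medium that favours mesoderm. With 1 line named per genotype, an effect of Foxk1 and any other difference between these lines cannot be told apart. The labels do not name the deleted part of the gene. The labels do not say whether the libraries of a group are separate cultures, so every p-value below measures only the spread between these libraries.

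Forkhead proteins bind DNA through a shared winged-helix domain and are sorted by its sequence into lettered subfamilies. In the early embryo Foxa proteins open chromatin for endoderm, node and floor plate genes, Foxh1 carries Nodal signals to DNA together with Smad proteins, Foxc and Foxf proteins pattern mesoderm, and several Foxd, Foxb, Foxi and Foxe genes mark neural or surface ectoderm. Foxo proteins are held out of the nucleus by insulin and Akt signalling, Foxm1 drives mitotic genes, and Foxp, Foxj and Foxn members are mostly broadly expressed regulators.

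Library sizes ran from 10574194 to 11621032 counts at days 3 and 5 and from 34466708 to 52747273 at day 10. Levels are given as CPM, the count of a gene scaled to the library's TMM-adjusted total; a count of 3 is 0.254 to 0.298 CPM at days 3 and 5 and 0.0621 to 0.0827 CPM at day 10. Foxk1 checks the labels. It read 86.3 and 76.4 CPM in day 3 control against 16.2 and 16.5 in KO (log2 fold change -2.32 ± 0.09, adjusted p = 2.22e-07), and 134 and 133 CPM in day 5 control against 38.2 and 33.6 in KO (-1.90 ± 0.09, adjusted p = 4.91e-07). At day 10 the test did not find it lower: 65.0 and 80.1 CPM in control, 71.3 and 41.8 in the libraries labelled KO (-0.36 ± 0.39, adjusted p = 0.722) and 26.4 and 52.9 in those labelled KO with IWR1. The sum of 5 Y-linked genes, a list added after the data had been seen, was 13.3 to 16.1 CPM in day 3 and 5 control, 149 to 166 CPM in day 3 and 5 KO, and 14.4 to 25.6 CPM in all 6 day 10 libraries. Whether the day 10 KO libraries came from the line used at days 3 and 5 was not tested. Day 10 groups are therefore called "labelled KO" throughout, and every direction drawn from them rests on those labels. The pair of libraries within a group also differed in likeness: among genes of at least 5 CPM, 0.07% to 0.36% were over 2-fold apart within day 3 control, day 3 KO, day 5 control and day 10 control, but 3.29% within day 5 KO, 3.45% within day 10 labelled KO and 4.49% within labelled KO with IWR1.

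The forkhead genes spanned the range from silent to abundant. Of the 41, 23 reached a mean of 5 CPM in at least 1 group and 5 stayed under 1 CPM in every group. Per kilobase of exon, the scale on which genes can be compared, Foxh1 stood highest at day 3 (113 CPM per kilobase in control, 83.8 in KO), followed by Foxo4 (60.5 and 42.3). At day 5 Foxo4 was highest in control (153 CPM per kilobase, Foxh1 92.7) and Foxh1 in KO (117, Foxo4 86.2). Foxo4 was highest in all 3 day 10 groups, at 26.0 CPM per kilobase in control, 43.8 in labelled KO and 23.5 in labelled KO with IWR1, and Foxm1 was among the top 4 in every group. Below these the order was close: in day 10 control Foxp4 (20.4) and Foxf1 (19.4), and Foxm1 (15.7) and Foxa1 (14.8), lay next to each other on this per-kilobase scale, and no test was made between genes. Between day 5 and day 10, which were deposited as separate tables, levels are set side by side without a test.

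**Figure D1:**
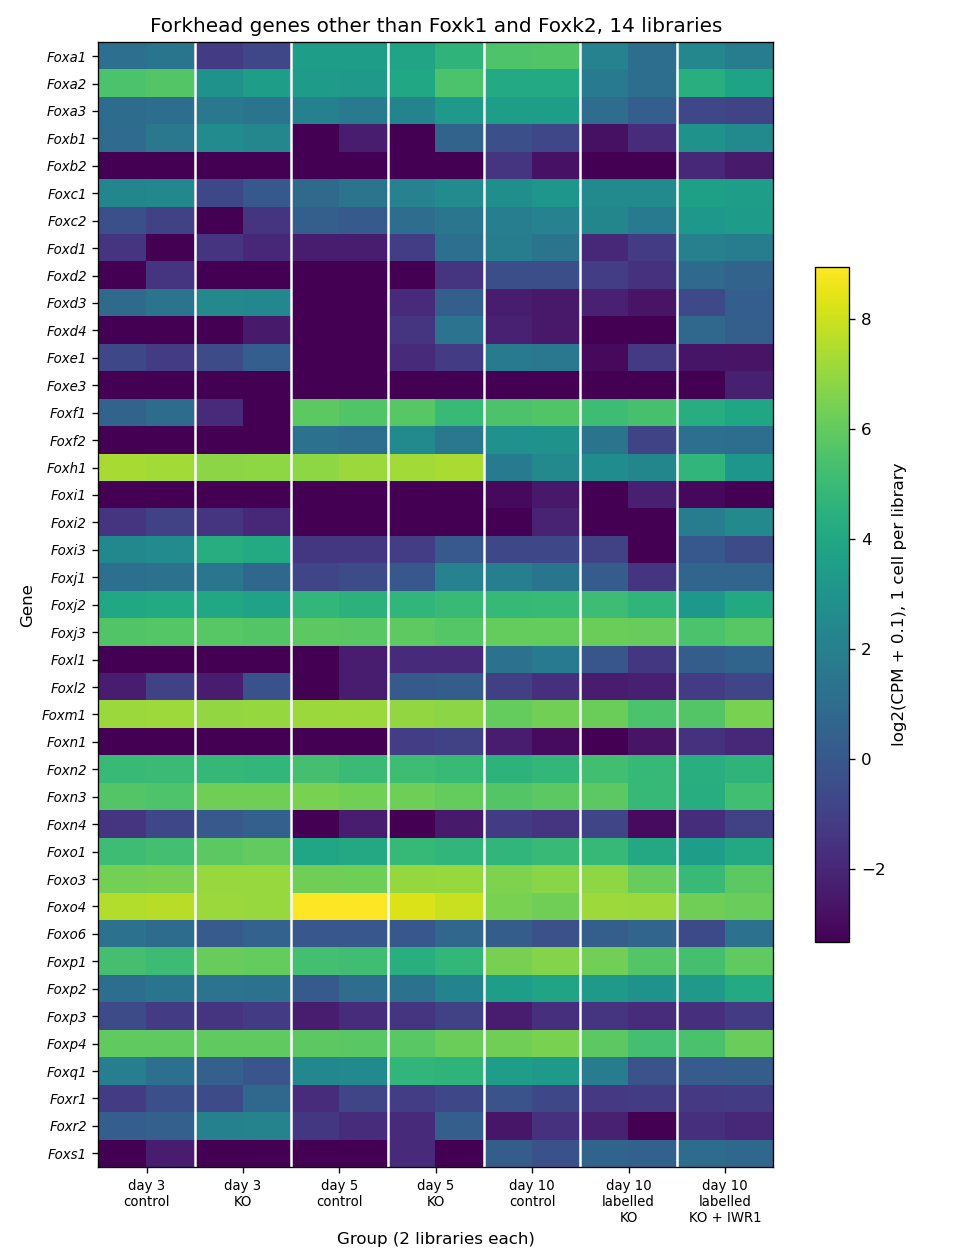
Heat map of log2(CPM + 0.1) for the 41 forkhead genes (rows) in 14 libraries (columns, 2 per group, white lines between groups). Foxh1, Foxm1, Foxo4, Foxj3 and Foxp4 are bright in many columns, Foxh1 dims at day 10, and Foxb2, Foxe3, Foxi1 and Foxn1 are dark in nearly all.

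A gene was called changed where edgeR's quasi-likelihood test gave an adjusted p below 0.05, with the adjustment over all genes of the table; fold changes are log2 with their standard error. At days 3 and 5, 28 forkhead genes had enough counts to be tested, and at day 10, 36; a gene can pass that filter through the group in which it is high, so the counts that follow describe those genes only. At day 3, 6 were higher and 7 lower in KO than in control (46.4% of 28, where 32.9% of all genes tested were called, 16% higher and 16.9% lower). Their median log2 fold change was 0.003, against -0.012 over all genes tested. At day 5, 9 were higher and 4 lower (46.4% of 28, against 43.5% of all genes, 21.9% higher and 21.7% lower), with a median of 0.824 against 0.010. At day 10, none was higher and 5 were lower in labelled KO (13.9% of 36, against 5.27% of all genes, 1.92% higher and 3.35% lower) by edgeR. At an unadjusted p below 0.05, 1 was higher and 13 lower there, and DESeq2 called 1 higher and 10 lower. IWR1-treated labelled KO had 9 higher and 3 lower than labelled KO (33.3% of 36, against 13.9% of all genes, 5.77% higher and 8.08% lower). It had 5 higher and 5 lower than control (27.8% of 36, against 9.12% of all genes, 2.99% higher and 6.13% lower). These day 10 comparisons share libraries and are not independent. Between day 3 and day 5, 7 rose and 10 fell in control (60.7% of 28, against 60.8% of all genes, 30.6% higher and 30.2% lower). In KO, 10 rose and 7 fell (60.7%, against 53.8% of all genes, 28.3% higher and 25.5% lower). The KO effect itself differed between the days for 7 of 28, 5 higher and 2 lower (25%, against 24.2% of all genes, 13.4% higher and 10.8% lower). Over the 8 comparisons, 29 of the 41 were called at least once and 12 never, 4 of them because they were tested in neither table.

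**Figure D2:**
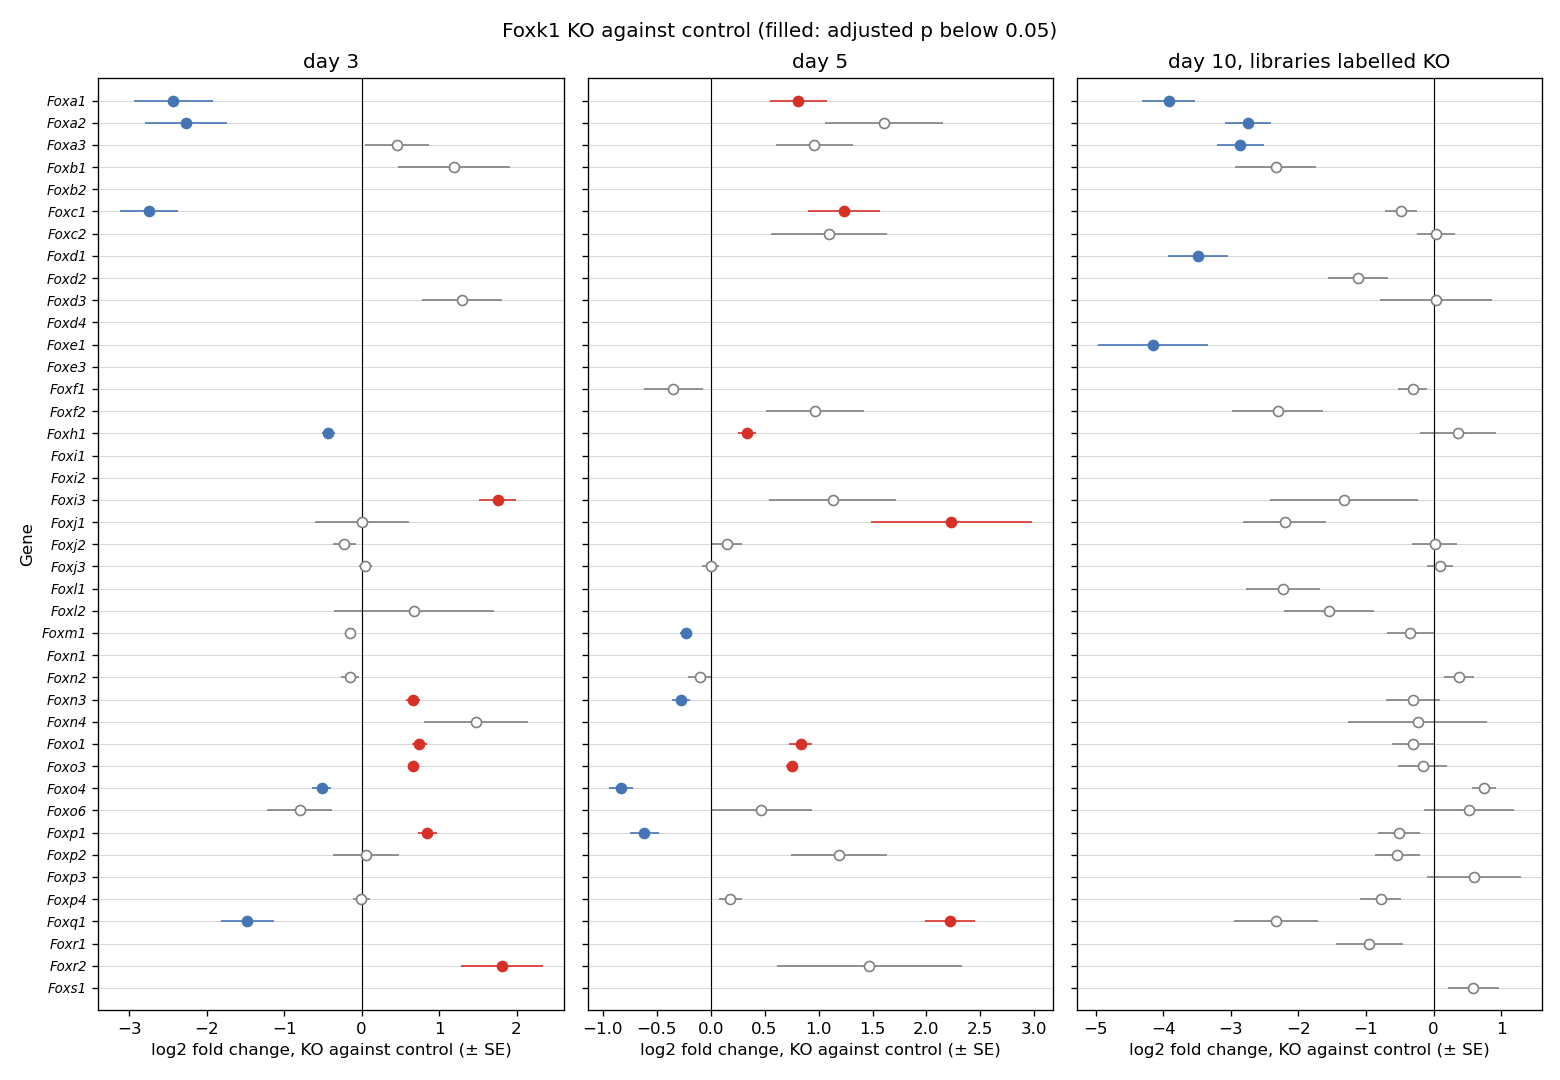
Log2 fold change of KO against control (x axis, points with standard-error bars, each panel with its own range) for the forkhead genes (y axis) at days 3, 5 and 10; filled red is higher and filled blue lower at an adjusted p below 0.05, open points are not called, and genes not tested or with 3 or fewer counts in a group have no point. Foxa1 is blue at days 3 and 10 and red at day 5, while Foxo1 and Foxo3 are red at days 3 and 5 and open at day 10.

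Foxa1 and Foxa2 were lower in KO at day 3, and all 3 Foxa genes were lower in the libraries labelled KO at day 10. Foxa1 and Foxa2 are pioneer factors of endoderm, and Foxa2 also of node and floor plate; Foxa3 is their partner in gut and liver. Foxa1 (chromosome 12, 57540628 to 57546916, minus strand, GRCm38) read 2.11 and 2.64 CPM in day 3 control and 0.354 and 0.507 in KO, so that the groups did not overlap (-2.43 ± 0.51, adjusted p = 0.00576). By day 5 it stood at 11.1 and 11.2 CPM in control and 13.996 and 25.2 in KO, with the order turned (0.81 ± 0.26, adjusted p = 0.0314). In day 10 control Foxa1 reached its highest level, 46.3 and 48.2 CPM, against 4.17 and 2.05 in labelled KO (-3.92 ± 0.39, adjusted p = 0.00839). It stayed low with IWR1, at 5.07 and 3.58 CPM, below control (-3.44 ± 0.38, adjusted p = 0.00666) and overlapping labelled KO. The day 10 difference kept its call when any 1 library was left out. The day 3 call was lost without KO library 1 (adjusted p = 0.0548), and the day 5 call without KO library 2 or either control library (adjusted p = 0.128 to 0.225), with DESeq2 (adjusted p = 0.0829) and in a fit of the 2 groups alone (adjusted p = 0.103).

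Foxa2 (chromosome 2, 148042877 to 148046969, minus strand) started high in control: 43.2 and 49.8 CPM at day 3, against 7.78 and 11.5 in KO (-2.27 ± 0.53, adjusted p = 0.0281). Control then fell to 10.4 and 9.44 CPM at day 5 (-2.23 ± 0.54 against day 3, adjusted p = 0.0169), while the KO libraries read 15.8 and 44.5. Both KO libraries lay above control at day 5, far from each other, and the difference was not called (1.61 ± 0.54, adjusted p = 0.067). At day 10 Foxa2 was at 18.1 and 17.9 CPM in control, 3.27 and 2.08 in labelled KO (-2.75 ± 0.34, adjusted p = 0.0123) and 20.9 and 13.6 with IWR1. Among the Foxa genes it was the one that was higher with IWR1 than in labelled KO (2.68 ± 0.34, adjusted p = 0.0112), and its IWR1 libraries lay on both sides of control (-0.06 ± 0.31, adjusted p = 0.903). The day 3 call was lost without any 1 of the 4 libraries (adjusted p = 0.0812 to 0.136) and without the low-count filter (adjusted p = 0.0707), and the day 10 call without either control library (adjusted p = 0.0517 to 0.0684).

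Foxa3 (chromosome 7, 19013284 to 19023538, minus strand) read 1.94 and 2.03 CPM in day 3 control, 2.92 and 2.54 in KO, 4.06 and 3.18 in day 5 control and 4.51 and 9.60 in KO, with no call between lines on either day. In day 10 control it stood at 11.5 and 11.6 CPM, in labelled KO at 2.01 and 1.15 (-2.86 ± 0.34, adjusted p = 0.0118) and with IWR1 at 0.518 and 0.469. The 3 groups were thus in steps without overlap, IWR1 lowest: below labelled KO (-1.67 ± 0.37, adjusted p = 0.0337) and below control (-4.53 ± 0.38, adjusted p = 0.00455). The call of labelled KO against control was lost without either control library (adjusted p = 0.0613 to 0.0771), and that of IWR1 against labelled KO without labelled KO library 1 or either IWR1 library (adjusted p = 0.0682 to 0.12) and with the replicate block (adjusted p = 0.057) or in a fit of the 2 groups alone (adjusted p = 0.105).

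**Figure D3:**
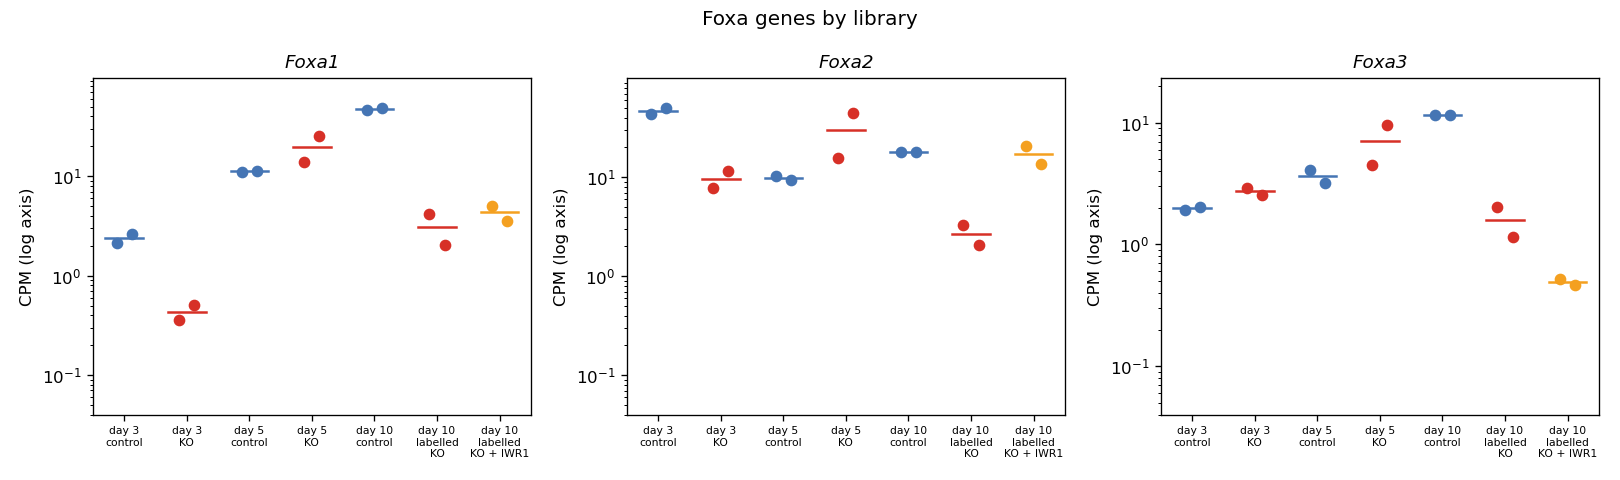
CPM (log axis) of Foxa1, Foxa2 and Foxa3 in each library, with 2 points and a bar at the mean per group (blue control, red KO, orange labelled KO with IWR1). In day 10 control each gene lies above labelled KO. With IWR1, Foxa2 lies on both sides of control, at 13.6 to 20.9 CPM. Foxa1 (3.58 to 5.07) and Foxa3 (0.469 to 0.518) lie below control with IWR1.

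Endoderm genes fixed as a list were called in both directions. Of 17, 9 were lower and 3 higher in KO at day 3 (70.6%, against 32.9% of all genes). With the smallest p were Gata6 (0.477 CPM in KO, 58.2 in control), Gata4 (2.69 and 47.0) and Gsc (1.93 and 49.3), transcription factors of endoderm and of the organizer, all lower. The 3 higher were the epithelial genes Cldn6 (168 and 77.0 CPM), Epcam (243 and 119) and Cdh1 (686 and 382). The list summed to 2294 and 2365 CPM in KO against 2206 and 2195 in control. A few abundant genes weigh most in that sum, above all Trh (1064 CPM in KO, 400 in control), which was not called. The list's median log2 fold change was -2.09, against -0.012 over all genes. At day 5, 10 were higher and 1, Gata6, lower (64.7%, against 43.5% of all genes). At day 10, 5 were lower and 1, Gsc, higher in labelled KO (35.3%, against 5.27% of all genes). Among the lower ones were Epcam (23.5 CPM, 131 in control) and the signal gene Shh (3.14 and 25.9). IWR1 gave 5 higher and 2 lower than labelled KO (41.2%, against 13.9% of all genes). It gave 2 higher and 3 lower than control (29.4%, against 9.12% of all genes). A further list held 10 visceral endoderm and liver genes, which include the Foxa target Ttr. It summed to 187 and 150 CPM in day 5 control and 26.9 and 27.6 in KO. Of 9 tested, 6 were lower and 1 higher (77.8%, against 43.5% of all genes), on the day when Foxa1 was higher in KO. This list summed to 4515 to 5269 CPM in day 10 control, 722 to 1908 in labelled KO and 74.1 to 164 with IWR1. In labelled KO 2 of 10 were lower than in control (20%, against 5.27% of all genes). With DESeq2, 5 were lower and 1 higher. With IWR1, 9 of 10 were lower than in labelled KO (90%, against 13.9% of all genes), led by Rbp4 (10.4 against 127 CPM). All 10 had counts in each day 10 group. The list of 10 fibroblast markers summed to 7989 to 8631 CPM in day 10 control, 21173 to 27210 in labelled KO and 1425 to 3789 with IWR1. Of these, 2 were higher in labelled KO than in control (20%, against 5.27% of all genes), and with DESeq2 7 were higher and 1 lower. In bulk RNA, fewer cells of a type and less RNA per cell cannot be told apart, and the part of these cell types in the Foxa differences was not tested.

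The 3 Foxa genes are shown with the 250 bases before a RefSeq start site (GRCm38.p6, minus strand, written 5′ to 3′ as transcribed), because they were lower together at day 10. Foxa1 lies at chr12:57546112-57546361, Foxa2 (1 of its 3 start sites, the farthest upstream) at chr2:148046970-148047219 and Foxa3 at chr7:19023540-19023789. Capitals mark a match to the forkhead core, TGTTTAC or TGTTTGC on either strand.
Foxa1: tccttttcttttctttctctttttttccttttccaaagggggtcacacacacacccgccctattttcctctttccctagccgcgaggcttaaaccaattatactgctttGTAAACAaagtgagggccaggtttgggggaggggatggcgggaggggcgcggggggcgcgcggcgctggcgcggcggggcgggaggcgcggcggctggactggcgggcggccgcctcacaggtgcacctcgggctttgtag
Foxa2: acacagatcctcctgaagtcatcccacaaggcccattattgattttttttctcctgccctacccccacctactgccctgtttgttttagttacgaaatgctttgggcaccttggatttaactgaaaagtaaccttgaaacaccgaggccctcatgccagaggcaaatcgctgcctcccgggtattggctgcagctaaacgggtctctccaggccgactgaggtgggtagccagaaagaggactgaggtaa
Foxa3: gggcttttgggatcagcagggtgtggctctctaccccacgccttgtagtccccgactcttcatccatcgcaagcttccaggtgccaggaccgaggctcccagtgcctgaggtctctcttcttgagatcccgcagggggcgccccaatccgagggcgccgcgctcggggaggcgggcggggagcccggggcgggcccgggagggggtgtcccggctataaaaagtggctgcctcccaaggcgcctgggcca
Foxa1 holds 1 match, on the other strand, 141 to 135 bases before its start, and the Foxa2 and Foxa3 windows hold none. Of all 32851 mouse promoters of this length, 7.29% hold a match. These letters are not a bound site.

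Foxh1, the DNA-binding partner of Smad proteins in Nodal signalling, was the most abundant forkhead gene per kilobase at day 3 and changed little in size but tightly between libraries. It lies on chromosome 15 (76668225 to 76669948, minus strand). At day 3 it read 158 and 151 CPM in control and 112 and 116 in KO (-0.43 ± 0.08, adjusted p = 0.00423). By day 5 the order was reversed, with 116 and 137 CPM in control and 151 and 168 in KO (0.34 ± 0.08, adjusted p = 0.0105). The groups did not overlap on either day. Day 10 levels were far lower, at 3.15 and 5.40 CPM in control, 6.14 and 4.84 in labelled KO and 26.7 and 8.49 with IWR1, and no day 10 comparison was called (IWR1 against control 2.05 ± 0.57, adjusted p = 0.0712). The day 3 call held without any 1 library, and the day 5 call was lost without control library 1 (adjusted p = 0.0874) and in a fit of the 2 groups alone (adjusted p = 0.0608).

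Nodal pathway genes, of which 15 were fixed as a list, were called in both directions. In day 3 KO 1 was higher and 5 lower (40% of 15, against 32.9% of all genes). The 1 higher was the Nodal antagonist Lefty1 (159 CPM, 31.7 in control). Among those lower were the Nodal co-receptor Tdgf1 (282 CPM, 694 in control) and, with the smallest p, the signal transducers Smad4 (112 CPM, 154 in control) and Smad2 (53.0 and 67.4) and a further antagonist, Lefty2 (82.9 and 122). In day 5 KO 5 were higher and 2 lower (46.7% of 15, against 43.5% of all genes). Nodal itself stood at 25.9 CPM against 2.53 in control (3.35 ± 0.24, adjusted p = 3.71e-05) and Lefty2 at 16.5 against 3.28 (2.33 ± 0.19, adjusted p = 2.09e-05). None of the 14 tested at day 10 was called by edgeR with IWR1 against control, where 1 was higher and 1 lower at an unadjusted p below 0.05 and DESeq2 called 1. Primitive streak markers, the cells that respond to Nodal, summed to 2310 and 2398 CPM in day 3 control and 272 and 325 in KO, with 8 of 8 lower, and to 43.8 and 60.6 CPM in day 5 control and 175 and 258 in KO, with 6 of 8 higher. Pluripotency markers summed to 1681 to 1788 CPM in all day 3 libraries, with 1 of 8 higher and 1 lower in KO. Most of that sum was Pou5f1 (1072 CPM in KO, 1023 in control). They summed to 67.8 and 69.7 CPM in day 5 control and 275 and 518 in KO, with 7 of 8 higher. All 8 markers of each list had counts there. The part of such cells in the Foxh1 difference was not tested.

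The Foxo genes split. Foxo1 and Foxo3 were higher in KO on both early days, while Foxo4 was lower. These are the effectors that insulin and Akt signalling keep out of the nucleus. Foxo3 (chromosome 10, 42181841 to 42276755, minus strand) read 82.2 and 86.0 CPM in day 3 control and 133 and 134 in KO (0.66 ± 0.06, adjusted p = 2.73e-05), and 76.9 and 75.9 in day 5 control and 126 and 132 in KO (0.75 ± 0.06, adjusted p = 1.04e-05). The lines did not overlap on either day, and the gene did not change between the days by the test in either line. Foxo1 (chromosome 3, 52268336 to 52353221, plus strand) stood at 34.95 and 37.9 CPM in day 3 control and 58.2 and 63.8 in KO (0.74 ± 0.09, adjusted p = 0.000391). At day 5 both lines were lower, control at 14.9 and 16.5 CPM and KO at 29.2 and 26.8, with a like gap (0.83 ± 0.11, adjusted p = 0.00029). These 4 calls held under every alternative that was run.

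Foxo4 (chromosome X, 101254528 to 101260873, plus strand) went the other way. It read 185 and 197 CPM in day 3 control and 137 and 130 in KO (-0.52 ± 0.12, adjusted p = 0.0146). It rose in both lines by day 5, to 482 and 487 CPM in control, the highest value of any forkhead gene in the study, and to 309 and 236 in KO (-0.83 ± 0.11, adjusted p = 0.00123). At day 10 the labelled KO libraries were the high ones, at 139 and 138 CPM against 87.4 and 77.2 in control, a difference that was not called (0.75 ± 0.18, adjusted p = 0.069). With IWR1 it was at 77.7 and 70.7 CPM, lower than in labelled KO (-0.90 ± 0.18, adjusted p = 0.0267) and overlapping control. The day 5 call held without any 1 library. The day 3 call was lost without any 1 of 4 libraries (adjusted p = 0.0532 to 0.0887), and the IWR1 call likewise (adjusted p = 0.0549 to 0.0888) and with the replicate block (adjusted p = 0.0777) or the 2 groups alone (adjusted p = 0.0768).

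At day 10 neither Foxo1 (26.3 and 31.0 CPM in control, 29.7 and 16.9 in labelled KO, 11.7 and 16.5 with IWR1) nor Foxo3 (95.1 and 108, 115 and 66.9, 31.8 and 57.4) was called. Both IWR1 libraries lay below both control libraries for each gene. Foxo6 ranged over the 14 libraries from 0.580 to 2.29 CPM and was called once, falling in control from day 3 to day 5 (-1.23 ± 0.44, adjusted p = 0.0351), a call lost without any 1 of 4 libraries (adjusted p = 0.0822 to 0.148), without the low-count filter (adjusted p = 0.0600) and with DESeq2 (adjusted p = 0.199). Of 23 genes of the insulin and Foxo pathway, 22 were tested. In day 3 KO 6 were higher and 6 lower (54.5%, against 32.9% of all genes). Among the higher were the antioxidant gene Cat (135 CPM, 88.3 in control) and the apoptosis gene Bcl2l11 (48.8 and 29.2). On the low side lay Cdkn1b (48.4 CPM, 74.2 in control), Txnip (54.6 and 74.9) and Trib1 (31.5 and 43.6). At day 5, 9 were higher and 7 lower (72.7%, against 43.5% of all genes). They were led by Trib1 (27.9 and 8.19), Klf2 (17.9 and 4.42) and the insulin receptor Insr (77.0 and 45.9), all higher. On the low side in day 5 KO lay Igf1r (92.2 CPM, 190 in control) and Txnip (123 and 219). The list's median log2 fold change was -0.031 at day 3 and -0.013 at day 5, against -0.012 and 0.010 over all genes. At day 10 none was called by edgeR in labelled KO against control, with 2 higher and 3 lower at an unadjusted p below 0.05 and 1 called by DESeq2 (median log2 fold change 0.004, against 0.024 over all genes). IWR1 gave 1 higher and 4 lower than labelled KO (22.7%, against 13.9% of all genes), led by Txnip (183 against 534 CPM). It gave 2 lower than control (9.09%, against 9.12% of all genes), Fbxo32 (4.76 against 29.0) and Bcl6 (1.68 against 5.34).

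**Figure D4:**
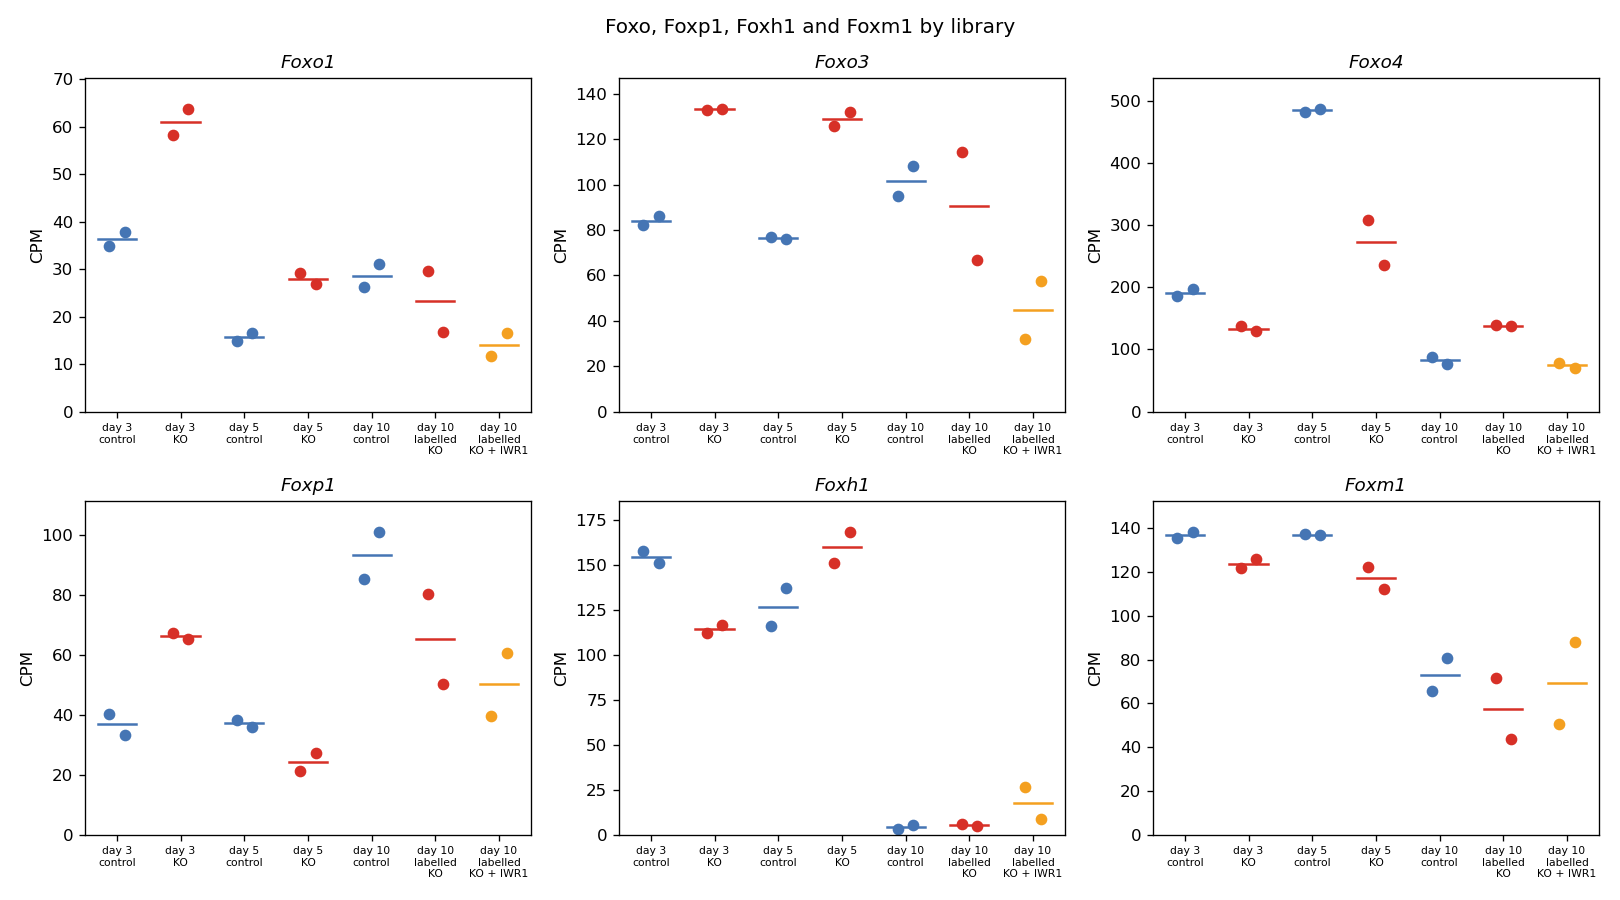
CPM (linear axis from 0) of Foxo1, Foxo3, Foxo4, Foxp1, Foxh1 and Foxm1 in each library, with 2 points and a bar at the mean per group (blue control, red KO, orange labelled KO with IWR1). Foxo1 and Foxo3 lie higher in KO at days 3 and 5, Foxo4 peaks at 482 and 487 CPM in day 5 control, and Foxh1 drops from over 100 CPM at days 3 and 5 to 26.7 or less at day 10.

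Foxm1, the activator of mitotic genes, read 136 and 139 CPM in day 3 control, 122 and 126 in KO, 137 and 137 in day 5 control and 122 and 112 in KO, and the day 5 difference was called while that of day 3 was not (-0.23 ± 0.06, adjusted p = 0.0109). Day 10 levels were 65.5 and 80.9 CPM in control, 71.4 and 43.8 in labelled KO and 50.7 and 88.2 with IWR1, with overlapping groups. The day 5 call was lost without either control library (adjusted p = 0.0551 to 0.0633), with DESeq2 (adjusted p = 0.0911) and in a fit of the 2 groups alone (adjusted p = 0.0584). Among 18 mitotic genes listed as Foxm1 targets, 1 was higher and 3 lower in KO at day 3 (22.2%, against 32.9% of all genes). In day 5 KO, 2 were higher and 7 lower (50%, against 43.5% of all genes), led by the phosphatase Cdc25b (15.4 CPM, 29.1 in control). From day 3 to day 5, 13 of 18 fell in control and 16 of 18 in KO, where 30.2% and 25.5% of all genes fell. None was called by edgeR or DESeq2 between labelled KO and control at day 10, where 1 was higher at an unadjusted p below 0.05. With IWR1, 4 were higher than in labelled KO (22.2%, against 13.9% of all genes), led by the kinase Aurka (115 against 55.0 CPM).

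Of Foxp1, Foxp2 and Foxp4, repressors that act in heart, lung and nervous system, Foxp1 changed most between lines and days. Foxp1 (chromosome 6, 98925338 to 99522721, minus strand) read 40.3 and 33.2 CPM in day 3 control and 67.2 and 65.2 in KO (0.85 ± 0.12, adjusted p = 0.000882). The order was turned by day 5, with 38.3 and 36.0 CPM in control and 21.2 and 27.2 in KO (-0.61 ± 0.13, adjusted p = 0.00494). No change between the days was called in control, whereas KO fell (-1.45 ± 0.13, adjusted p = 1.95e-05), and these calls held under every alternative that was run. The day 10 levels were 85.3 and 101 CPM in control, 80.1 and 50.0 in labelled KO and 39.7 and 60.5 with IWR1, with no call.

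Foxp4 was not called at days 3 and 5, with 61.0 and 61.5 CPM in day 3 control, 60.7 and 61.4 in KO, 57.0 and 55.6 in day 5 control and 55.5 and 72.3 in KO. It then read 76.8 and 87.7 CPM in day 10 control, 56.9 and 38.8 in labelled KO and 43.1 and 70.2 with IWR1. Foxp2 was at 2.03 and 2.55 CPM in day 3 control, 2.48 and 2.28 in KO, 0.991 and 1.99 in day 5 control and 2.35 and 4.45 in KO. Day 10 control had 11.3 and 14.2 CPM, labelled KO 9.78 and 7.79, and IWR1 9.79 and 17.7. Neither gene was called in any comparison. Of 9 Foxp partner and target genes, 8 were tested at days 3 and 5. In day 3 KO 2 were higher and 3 lower (62.5%, against 32.9% of all genes). They were led by Gata6 and by the deacetylase Hdac1 (306 CPM, 208 in control). At day 5, 2 were higher and 4 lower (75%, against 43.5% of all genes). At day 10, 4 of 9 were lower in labelled KO (44.4%, against 5.27% of all genes). They were led by the cardiac factor Nkx2-5 (0.340 CPM, 17.1 in control) and Hopx (4.22 and 15.9).

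Mesodermal forkhead genes lie in 2 small gene clusters. On chromosome 13, Foxq1 (31556134 to 31560976), Foxf2 (31625816 to 31631403) and Foxc1 (31806633 to 31812476) follow each other on the plus strand, with gaps of 64.8 and 175.2 kilobases. On chromosome 8, Foxf1 (121084386 to 121088144), Foxc2 (121116171 to 121118895) and Foxl1 (121127940 to 121130644) follow each other, also on the plus strand, with gaps of 28.0 and 9.0 kilobases. Foxc1 and Foxc2 act in paraxial mesoderm and vessels, Foxf1, Foxf2 and Foxl1 in gut mesenchyme downstream of Hedgehog signals, and Foxq1 in epithelia. Foxf1, Foxf2 and Foxq1, and elsewhere Foxb1, Foxe1, Foxj2, Foxl2, Foxo1 and Foxp3, share exon bases with genes on the other strand. The kit may not have kept strand, so their reads may include reads of those partners.

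Foxc1 read 4.75 and 5.20 CPM in day 3 control and 0.531 and 0.930 in KO (-2.74 ± 0.38, adjusted p = 0.000643). At day 5 control had fallen to 1.78 and 2.48 CPM and KO had risen to 4.24 and 5.85 (1.24 ± 0.33, adjusted p = 0.0143), the reverse order, again without overlap. At day 10 control (6.81 and 8.63 CPM) lay above labelled KO (5.48 and 5.58) without a call (-0.48 ± 0.24, adjusted p = 0.338). It was higher with IWR1 (12.4 and 11.8) than in labelled KO (1.13 ± 0.24, adjusted p = 0.0303). The day 3 call held without any 1 library. The day 5 call was lost without control library 1 (adjusted p = 0.106) and with DESeq2 (adjusted p = 0.0707), and the IWR1 call without either labelled KO library or IWR1 library 1 (adjusted p = 0.0845 to 0.0979) and with the replicate block (adjusted p = 0.0723) or the 2 groups alone (adjusted p = 0.0728).

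Foxc2 read 0.704 and 0.440 CPM in day 3 control and 0 and 0.254 in KO, then 1.19 and 0.994 CPM in day 5 control and 1.99 and 2.70 in KO, with no call between lines. Control (3.71 and 4.16 CPM) and labelled KO (4.75 and 3.31) overlapped at day 10. With IWR1 it was at 9.19 and 10.7 CPM, above labelled KO (1.30 ± 0.28, adjusted p = 0.0328) and above control (1.34 ± 0.28, adjusted p = 0.0379). Each IWR1 call was lost without any 1 of its 4 libraries (adjusted p = 0.0511 to 0.0993 against labelled KO and 0.0633 to 0.244 against control) and with the replicate block (adjusted p = 0.0705 and 0.0779), the first also in a fit of the 2 groups alone (adjusted p = 0.0768).

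Foxq1 read 3.70 and 2.11 CPM in day 3 control and 1.24 and 0.845 in KO (-1.47 ± 0.34, adjusted p = 0.01), then 5.25 and 5.76 in day 5 control and 26.6 and 24.6 in KO (2.22 ± 0.23, adjusted p = 8.26e-05). No other forkhead gene gained as much in KO between these days with more than 3 counts in each group, apart from Foxa1 (Foxq1 4.61 ± 0.29, Foxa1 5.47 ± 0.40). At day 10 it stood at 11.2 and 9.93 CPM in control, 3.42 and 0.765 in labelled KO (not called, -2.33 ± 0.62, adjusted p = 0.089) and 1.04 and 1.13 with IWR1 (-3.29 ± 0.65 against control, adjusted p = 0.0322). The day 5 call held without any 1 library, the day 3 call was lost without control library 1 or KO library 2 (adjusted p = 0.0851 to 0.0883), and the IWR1 call without any 1 of its 4 libraries (adjusted p = 0.0652 to 0.141).

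Foxf1 switched on between days 3 and 5 in both lines. It was at 1.41 and 1.94 CPM in day 3 control and had 2 counts in all in KO (0.177 and 0 CPM), a difference that was called (adjusted p = 0.039) and lost without any 1 of the 4 libraries (adjusted p = 0.0847 to 0.153) or without the low-count filter (adjusted p = 0.110). At day 5 it read 58.0 and 48.3 CPM in control and 53.3 and 30.5 in KO, with overlap. Day 10 values were 45.2 and 48.6 CPM in control, 34.9 and 40.8 in labelled KO and 19.7 and 14.9 with IWR1. The IWR1 libraries were the low ones, below labelled KO (-1.13 ± 0.22, adjusted p = 0.0247) and below control (-1.43 ± 0.22, adjusted p = 0.0154). The first call was lost without either labelled KO library or IWR1 library 1 (adjusted p = 0.0521 to 0.0749) and with the replicate block (adjusted p = 0.0615) or the 2 groups alone (adjusted p = 0.0650), and the second without either control library (adjusted p = 0.092 to 0.105).

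Foxf2 had no count in any day 3 library. At day 5 it read 2.28 and 2.09 CPM in control and 5.69 and 2.88 in KO, which is at least 16.5-fold higher than day 3 in control and at least 33.0-fold in KO with day 3 set at a floor of 3 counts a group. At day 10 it was at 7.32 and 7.60 CPM in control, 2.52 and 0.465 in labelled KO and 2.11 and 2.04 with IWR1, and no comparison was called (labelled KO against control -2.31 ± 0.67, adjusted p = 0.112). Foxl1 had at most 4 counts in a group at days 3 and 5, and stood at 2.24 and 3.34 CPM in day 10 control against 0.873 and 0.301 in labelled KO and 1.14 and 1.43 with IWR1, also not called (labelled KO against control -2.23 ± 0.55, adjusted p = 0.0733).

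Of 14 Hedgehog pathway and Foxf target genes, 13 were tested at days 3 and 5. In day 3 KO 1 was higher and 3 lower (30.8%, against 32.9% of all genes), led by the receptor partner Gas1 (8.19 CPM, 61.5 in control). In day 5 KO 2 were higher and 6 lower (61.5%, against 43.5% of all genes), led by the signal transducer Smo (168 and 235). At day 10 Gas1 was higher in labelled KO (199 CPM, 29.1 in control) and Shh lower by edgeR (14.3% of 14, against 5.27% of all genes). DESeq2 called 2 higher and 6 lower. With IWR1, Shh (16.3 against 3.14 CPM) and the pathway readouts Ptch1 (133 against 42.4) and Gli1 (26.5 against 9.44) were higher than in labelled KO and Ihh, the gut ligand, lower (0.300 against 3.62). Those IWR1 calls were 28.6% of 14 tested, against 13.9% of all genes. Day 10 control read 25.9 CPM for Shh, 140 for Ptch1, 28.9 for Gli1 and 13.1 for Ihh. Among 15 genes of Foxc mesoderm and vessels, with 11 tested at days 3 and 5, 6 were lower and none higher by edgeR in day 3 KO (2 higher at an unadjusted p below 0.05, 1 by DESeq2), led by Mesp2 (0.302 CPM, 16.2 in control) and Tbx6 (1.25 and 14.6) of the presomitic mesoderm. At day 5, 2 were higher and 2 lower (36.4% of 11, against 43.5% of all genes). At day 10, 2 were lower in labelled KO (13.3% of 15, against 5.27% of all genes). IWR1 gave 6 higher and 1 lower than labelled KO (46.7%, against 13.9% of all genes), among them Pax3 (19.7 against 0.440 CPM) and Meox1 (23.8 against 3.15). Endothelial markers, 8 in all, showed 1 call in KO at day 3 and none by edgeR or DESeq2 at day 5 or, in labelled KO, at day 10. At an unadjusted p below 0.05, 1 was lower at day 5 and 1 higher and 1 lower at day 10.

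The forkhead genes of neural and surface ectoderm were mostly faint, and 6 of them, Foxb1, Foxd1, Foxd2, Foxd3, Foxd4 and Foxi2, were higher with IWR1 than in labelled KO. Foxb1, a gene of the caudal neural tube and hypothalamus, read 1.85 and 2.91 CPM in day 3 control and 5.93 and 4.99 in KO, without a call, and had 1 count in day 5 control and 0 and 1.40 CPM in KO. At day 10 it was at 0.700 and 0.503 CPM in control, 0.0485 and 0.191 in labelled KO and 7.47 and 5.65 with IWR1. The IWR1 libraries were the high ones, above labelled KO (5.77 ± 0.58, adjusted p = 0.0071) and above control (3.44 ± 0.48, adjusted p = 0.0115). The call against labelled KO held without any 1 library, and that against control was lost without either control library (adjusted p = 0.0708 to 0.0865).

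Foxd1, which marks forebrain and kidney stroma, read 0.264 and 0 CPM in day 3 control, 0.265 and 0.169 in KO, 0.0991 and 0.0994 in day 5 control and 0.361 and 2.09 in KO, and was not tested there. At day 10 it read 3.38 and 2.49 CPM in control, 0.170 and 0.355 in labelled KO (-3.48 ± 0.45, adjusted p = 0.0129) and 3.91 and 3.39 with IWR1 (3.80 ± 0.45 against labelled KO, adjusted p = 0.0101). Its IWR1 level lay just above control with no call (0.31 ± 0.37, adjusted p = 0.572). The call against control was lost without control library 1 (adjusted p = 0.0877), and the IWR1 call held without any 1 library. Foxd2 read 0 and 0.264 CPM in day 3 control and 0 and 0.262 in day 5 KO, and had no count in day 3 KO or day 5 control. Its day 10 levels were 0.676 and 0.662 CPM in day 10 control, 0.364 and 0.246 in labelled KO and 1.74 and 1.41 with IWR1 (2.35 ± 0.44 against labelled KO, adjusted p = 0.0217; lost without either labelled KO library or IWR1 library 1, adjusted p = 0.0567 to 0.0872).

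Foxd3 is used by pluripotent cells and later by neural crest. It read 1.76 and 2.55 CPM in day 3 control and 5.39 and 5.24 in KO, without overlap but not called (1.30 ± 0.51, adjusted p = 0.0869). By day 5 control had no count and KO 0.181 and 1.22 CPM, at least 4.71-fold higher with control set at that floor (adjusted p = 0.0231). At day 10 control (0.0933 and 0.0794 CPM) and labelled KO (0.121 and 0.0547) were both near the floor, and IWR1 gave 0.559 and 1.16 CPM, above labelled KO (3.21 ± 0.70, adjusted p = 0.0331) and above control (3.25 ± 0.70, adjusted p = 0.0396). Its calls were fragile: the day 5 call was lost without KO library 2 or either control library (adjusted p = 0.0858 to 0.0936), and each IWR1 call without any 1 of its libraries (adjusted p = 0.0644 to 0.114 and 0.0716 to 0.24) and with the replicate block (adjusted p = 0.0646 and 0.0728), that against labelled KO also in a fit of the 2 groups alone (adjusted p = 0.0598).

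Foxd4 had no count in day 3 and day 5 control, 1 in day 3 KO and 31 in day 5 KO (0.271 and 2.44 CPM). At day 10 it read 0.117 and 0.0794 CPM in control, had no count in labelled KO and read 1.59 and 1.21 CPM with IWR1, at least 36.4-fold higher than labelled KO (adjusted p = 0.0114) and higher than control (3.79 ± 0.59, adjusted p = 0.0215). Foxi2, a gene of the surface ectoderm, read 0.264 and 0.440 CPM in day 3 control and 0.265 and 0.169 in KO and had no count at day 5. Day 10 control read 0 and 0.132 CPM. It passed 1 CPM in 1 group, IWR1, at 3.46 and 5.43 CPM, at least 115-fold higher than labelled KO, which had no count (adjusted p = 0.0165), and higher than control, which had 5 counts (6.07 ± 0.94, adjusted p = 0.022). The calls of Foxd4 and Foxi2 against labelled KO held without any 1 library. Against control, Foxd4 was lost without IWR1 library 1 or either control library (adjusted p = 0.102 to 0.153) and Foxi2 without IWR1 library 1 or control library 1 (adjusted p = 0.0541 to 0.0588) and with DESeq2 (adjusted p = 0.0780).

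**Figure D5:**
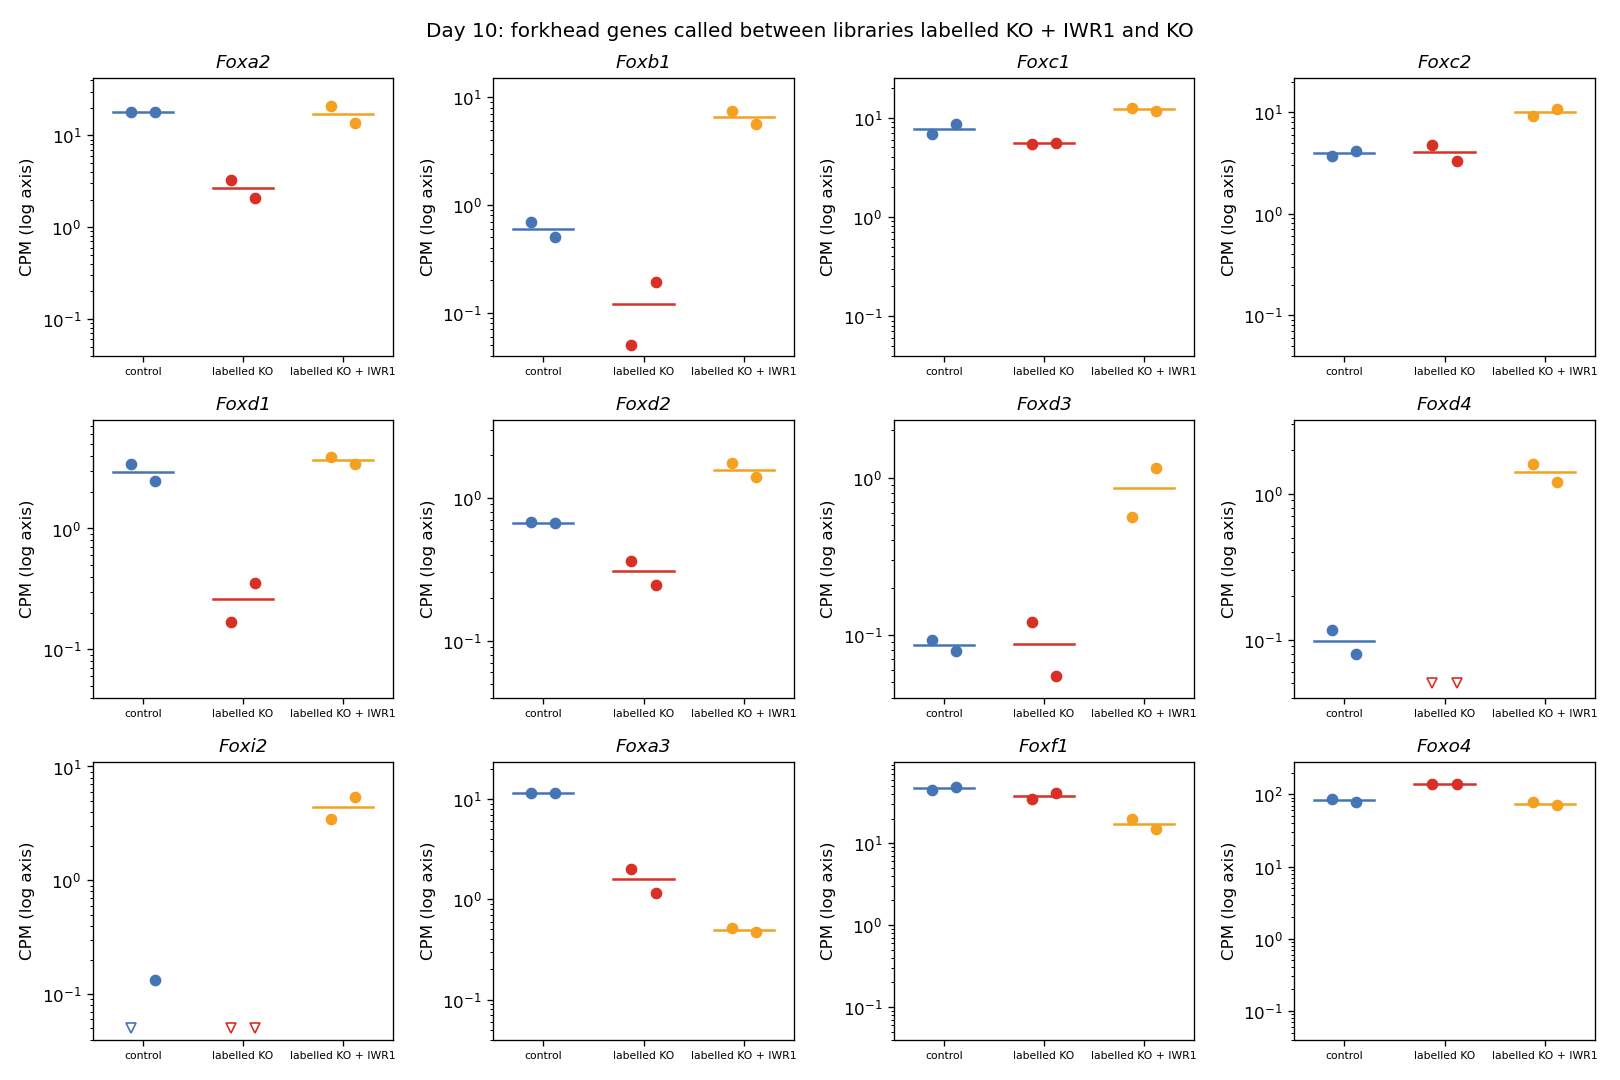
CPM (log axis) of the 12 forkhead genes called between labelled KO with IWR1 and labelled KO at day 10, in each library of the 3 groups, with 2 points and a bar at the mean (blue control, red labelled KO, orange labelled KO with IWR1; open triangles at the bottom are libraries with no count, and a group holding one has no bar). With IWR1, Foxa2 and Foxd1 lie near control, Foxb1, Foxc2, Foxd3, Foxd4 and Foxi2 lie above control, and Foxa3 and Foxf1 lie below it.

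Foxi3 and Foxe1 differed elsewhere. Foxi3, a gene of placodes and pharyngeal ectoderm, read 5.19 and 5.90 CPM in day 3 control and 19.8 and 17.7 in KO (1.76 ± 0.24, adjusted p = 0.000575), a call that held under every alternative that was run. It then fell in both lines, to 0.297 and 0.298 CPM in day 5 control and 0.361 and 0.960 in KO. It was at 0.536 and 0.530 CPM in day 10 control, 0.412 and 0 in labelled KO and 0.932 and 0.606 with IWR1. Foxe1, a gene of thyroid and foregut epithelium, stood at 3.27 and 2.94 CPM in day 10 control, 0.0243 and 0.328 in labelled KO (-4.15 ± 0.81, adjusted p = 0.0396) and 0.0621 and 0.0551 with IWR1 (-5.65 ± 0.92 against control, adjusted p = 0.0187). Like Foxa1 and Foxa3, and unlike Foxd1, it stayed below control with IWR1. It read 0.528 and 0.352 CPM in day 3 control, 0.619 and 1.18 in KO, had no count in day 5 control and read 0.181 and 0.349 CPM in day 5 KO, untested there. The labelled KO call was lost without either control library (adjusted p = 0.149 to 0.187), and the IWR1 call without IWR1 library 1 or either control library (adjusted p = 0.066 to 0.089).

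Most neural markers were higher with IWR1 at day 10. The 8 of them summed to 89.4 and 111 CPM in control, 84.8 and 65.4 in labelled KO and 350 and 456 with IWR1. With IWR1, 7 of 8 were higher than in labelled KO (87.5%, against 13.9% of all genes). Against control 6 of 8 were higher (75%, against 9.12% of all genes). Sox1 read 15.3 CPM with IWR1 and 0.788 in labelled KO. Labelled KO had 2 of 8 lower than control by edgeR (25%, against 5.27% of all genes), and DESeq2 called 1 higher and 4 lower. At day 3 the same list was at 242 and 236 CPM in control and 393 and 392 in KO, with 5 of 8 higher. All 8 had counts in each of these groups. The part of neural cells in the Foxb1, Foxd and Foxi2 differences was not tested.

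Foxj1, the regulator of motile cilia, read 2.11 and 2.29 CPM in day 3 control, 2.74 and 1.69 in KO, 0.496 and 0.596 in day 5 control and 0.903 and 4.28 in KO. Its day 5 call (2.23 ± 0.75, adjusted p = 0.0388) was lost without KO library 2 (adjusted p = 0.436) and without either control library; with the replicate block the adjusted p was 0.0504. At day 10 Foxj1 stood at 3.78 and 2.60 CPM in control, 1.09 and 0.273 in labelled KO and 1.47 and 1.49 with IWR1, not called. Of 12 genes of multiciliated cells, 11 were in the tables and 8 tested at day 5, where none was called in KO by edgeR or DESeq2 and 1 was higher at an unadjusted p below 0.05. Of all genes, 43.5% were called at day 5 by edgeR. At day 3, 2 were higher and 2 lower (50% of 8, against 32.9% of all genes). At day 10 none of 9 was called by edgeR in labelled KO (1 lower at an unadjusted p below 0.05 and by DESeq2). With IWR1, 3 were higher than in labelled KO (33.3%, against 13.9% of all genes), led by Tppp3 (27.1 against 6.67 CPM).

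Foxj2, Foxj3 and Foxn2, broadly expressed factors, were not called between any KO or IWR1 group and control or KO. Foxj3 read 49.3 and 51.5 CPM in day 3 control, 53.9 and 50.4 in KO, 56.4 and 55.6 in day 5 control, and 59.4 and 52.6 in KO. At the last day it read 65.8 and 65.1 CPM in control, 72.9 and 67.2 in labelled KO and 44.3 and 53.1 with IWR1. Foxn2 read 30.6 and 32.1 CPM in day 3 control, 28.9 and 27.6 in KO, 39.1 and 32.4 in day 5 control, and 35.1 and 31.5 in KO. The day 10 values were 24.0 and 27.3 in control, 36.8 and 29.8 in labelled KO and 20.2 and 24.7 with IWR1. Foxj2 rose from day 3 (15.8 and 17.8 CPM in control, 15.7 and 13.01 in KO) to day 5 (27.6 and 23.5 in control, 26.3 and 30.5 in KO) in both lines, by 0.61 ± 0.14 (adjusted p = 0.00489) and 0.98 ± 0.14 (adjusted p = 0.000387) on the log2 scale. Its day 10 values were 29.6 and 30.6 CPM in control, 34.98 and 25.9 in labelled KO and 9.21 and 17.5 with IWR1, the last below both other groups but not called (adjusted p = 0.0613 against labelled KO). Foxn3, a checkpoint repressor, behaved otherwise: it read 50.4 and 47.3 CPM in day 3 control and 77.6 and 77.2 in KO (0.66 ± 0.09, adjusted p = 0.000464), then 88.4 and 79.6 in day 5 control and 74.4 and 64.5 in KO (-0.27 ± 0.09, adjusted p = 0.0271). The day 3 call held under every alternative that was run, and the day 5 call was lost without KO library 2 or control library 1 (adjusted p = 0.0558 to 0.194), with DESeq2 (adjusted p = 0.116) and in a fit of the 2 groups alone (adjusted p = 0.0947). Its day 10 levels were 49.3 and 57.7 CPM in control, 57.0 and 29.5 in labelled KO and 19.7 and 37.2 with IWR1, with no call.

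Foxr2 was called once between lines, at day 3, with 1.14 and 1.23 CPM in control and 4.07 and 4.31 in KO (1.81 ± 0.53, adjusted p = 0.0268). It was at 0.297 and 0.199 CPM in day 5 control, 0.181 and 1.22 in KO, and 0.238 CPM or less in every day 10 library, and the call was lost without any 1 of the 4 libraries (adjusted p = 0.124 to 0.155) and with DESeq2 (adjusted p = 0.0972). Foxl2, a gene of ovary and eyelid, was called at day 5 from 1 count in control and 24 in KO (0.993 and 1.13 CPM; adjusted p = 0.0249), lost without either control library (adjusted p = 0.0752 to 0.155) and with DESeq2 (adjusted p = 0.0822). It was at 0.0880 and 0.440 CPM in day 3 control, and 0.0884 and 0.761 in KO. Day 10 levels were 0.397 and 0.212 CPM in control, 0.0970 and 0.109 in labelled KO and 0.331 and 0.496 with IWR1. The other 10 members were not called in any KO or IWR1 comparison and stayed under 5 CPM on average in every group. Foxs1 and Foxl1 had their highest values at day 10, Foxs1 reaching 1.88 CPM with IWR1, and Foxn4 fell in KO from 0.973 and 1.27 CPM at day 3 to 1 count at day 5. Foxb2, Foxe3, Foxi1 and Foxn1 never exceeded 0.436 CPM in a library, and Foxp3, Foxr1 and Foxo6 reached at most 0.616, 1.61 and 2.29 CPM.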

How the data were processed

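RNA-seq counts per gene came as deposited estimated counts in 2 tables (8 libraries of days 3 and 5, 6 of day 10); the submitters' processing notes name kallisto 0.46.2 and mm10. All values are whole numbers and were used as such. Libraries were grouped by their titles. The genes and lists were chosen with earlier results of these data known. The main test was the robust quasi-likelihood F-test of edgeR (4.0.16, under R 4.3.3), 1 model per table. Genes were kept by filterByExpr and scaled by TMM, and two-sided p-values were adjusted by Benjamini-Hochberg over 14430 or 17022 genes. CPM use TMM-scaled totals, and the standard error is the log2 fold change divided by the square root of F. The steps were tested on simulated data. Alternatives were DESeq2 1.42.0, its size factors in edgeR, no filter, a replicate block, the 2 groups alone, and each library left out. Library values are given for 31 genes: those called in a KO or IWR1 comparison or reaching 5 CPM in a group; list genes named are among the 3 with the smallest p in a comparison or were chosen after their values were seen. Lists share genes, such as Gsc, Shh and Gata6. Counts of list genes called are to be read beside the share of all genes called in the same comparison. Positions are GENCODE's (GRCm38), promoters RefSeq's. The kit named in the labels' protocols is TruSeq, stranded or not, so overlapping genes on opposite strands may share reads. The Y-linked genes and Foxk1 were added after the data had been seen. Some list genes are not reported here.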

Additional observations from a re-analysis of the deposited data

Results flagged for a closer look

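The difference between lines was itself tested between day 3 and day 5 (KO effect at day 5 minus KO effect at day 3, in log2 units, edgeR, 28 forkhead genes tested), and 7 genes passed. That is 25% of 28, close to the 24.2% of all genes tested that passed. Foxc1 (3.98 ± 0.51, adjusted p = 0.00057), Foxa2 (3.87 ± 0.76, adjusted p = 0.0214), Foxq1 (3.69 ± 0.41, adjusted p = 0.000272), Foxa1 (3.24 ± 0.57, adjusted p = 0.00325) and Foxh1 (0.77 ± 0.12, adjusted p = 0.00176) were lower in KO at day 3 and, except Foxa2, which was not called, higher at day 5. Foxp1 (-1.46 ± 0.18, adjusted p = 0.000498) and Foxn3 (-0.94 ± 0.12, adjusted p = 0.000632) were higher at day 3 and lower at day 5. Foxa2 lost this call without any 1 of 6 of the 8 libraries (adjusted p = 0.0556 to 0.0781), and the other 6 genes kept it without each. Foxa2 also lost it without the low-count filter (adjusted p = 0.0549). Of 34 forkhead genes with more than 3 counts in day 5 KO, 9 were over 2 times higher in library 2 than in library 1 and 0 the reverse. The same count was not made over all genes, so it cannot be said to be particular to the forkhead genes. Each group has 2 libraries, too few to say which library is the outlying one.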

How the results depend on the processing

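Of 94 called gene results, none changed sign in 865 alternative values; 702 kept their call and 163 lost it, 128 of them with a library left out, 11 in fits of the 2 groups alone, 10 each with DESeq2 and the replicate block, 4 without the filter and 0 with DESeq2's size factors. The number of forkhead genes called changed over 1.5 times at day 5 in the fit of the 2 groups alone (7 against 13), at day 10 without the filter (11 against 5) and with DESeq2 (11), and for IWR1 against labelled KO with the replicate block (6 against 12) and with the 2 groups alone (6). Leaving out 1 library gave 8 to 9 called forkhead genes at day 3, 5 to 24 at day 5, 1 to 10 at day 10, 5 to 11 for IWR1 against labelled KO, 2 to 10 for IWR1 against control, 9 to 12 over days 3 to 5 in control, 15 to 25 in KO and 6 to 16 for the difference between days. The causes were not tested. Over all genes, day 3 gave 4741 calls, 2991 with DESeq2, 7334 with the 2 groups alone and 2520 to 2572 without 1 library; day 5 gave 6281 and, without 1 library, 4030 to 7565. Day 10 gave 897, then 1737 without the filter, 2023 with DESeq2 and 63 to 838 without 1 library. IWR1 against labelled KO gave 2358, then 3697 without the filter, 1233 with the block, 4308 with DESeq2, 1001 with the 2 groups alone and 548 to 3056 without 1 library; against control 1553, then 3093, 948 and 3456 in that order, and 280 to 2145. The difference between days gave 3496, 2315 with DESeq2 and 2049 to 5621 without 1 library. Deviations of same-numbered libraries had correlations between groups of -0.03 to 0.133 at days 3 and 5. At day 10 they were opposed for control with labelled KO (-0.699) and for labelled KO with IWR1 (-0.627), and alike for control with IWR1 (0.561). The labels give no meaning to the library number, so it was not taken as a pairing in the main test. The replicate block uses that number, so a call kept or lost with it does not show how firm the call is.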

Other observations

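Of the 41 forkhead genes, 27 had a RefSeq promoter, 32 in all, and the 250 bases before the start were read for 3 short motifs on both strands. The forkhead core (TGTTTAC or TGTTTGC) was found in 3 of 32 (9.38%), in Foxa1, Foxj3 and Foxp1, against 7.29% of all 32851 mouse promoters. The core of the Wnt-responsive TCF and LEF factors (CTTTGAT or CTTTGAA) was in 1 of 32 (3.12%), at a Foxp1 start site other than the one with the forkhead match, against 7.48%. The Foxh1 core (AATCCACA) was in 0 of 32, against 0.718%. Median GC content was 61.4% in the 32 and 52.4% in all promoters, and a match describes letters in a window.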
